A study of Mus musculus with 48 samples.

Results

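Expression of the genes that make, break down and regulate polyamines was followed in mouse liver over 48 consecutive hours. The genes were Odc1, Srm and Sms for synthesis, Sat1 and Smox for catabolism, Oaz1 and Oaz2 for the antizymes, and Azin1 for the antizyme inhibitor. They were found by the gene symbols of the array's annotation, and all probe sets carrying a symbol were taken. The 8 genes had 18 probe sets among 45101 on the array, which covered 18194 genes. Of these, 14 probe sets, belonging to 7 genes, carried the symbol of the gene alone. The other 4 also listed a pseudogene, 3 for Sms and 1 for Oaz1, and their values are uncertain and were kept out of all counts. Sms therefore had no probe set of its own.

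The mice were 6-week-old male wild-type C57BL/6J animals, kept in 12 h light and 12 h dark before release into constant darkness, with no genetic change or treatment. Livers of 3 to 5 mice were combined at each hour from CT18 to CT65, where CT is circadian time, CT0 is subjective dawn and CT12 is subjective dusk. Each hourly pool was read on 1 array. CT18 to CT41 formed the first cycle and CT42 to CT65 the second, so each hour of the day was sampled in 2 pools from different animals. No hour was repeated within a cycle, and the errors given below come from the scatter of the pools about the fitted curves.

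Polyamines are small positively charged molecules, putrescine, spermidine and spermine, that bind nucleic acids and are needed for growth and translation. Ornithine decarboxylase, the product of Odc1, makes putrescine and is the regulated entry step of the pathway. Antizyme binds ornithine decarboxylase and sends it to the proteasome without ubiquitin, and antizyme itself is made only when polyamines are plentiful, through a ribosomal frameshift. The antizyme inhibitor is an inactive relative of ornithine decarboxylase that captures antizyme. Spermidine synthase, from Srm, and spermine synthase, from Sms, lengthen the chain. Spermidine/spermine acetyltransferase, from Sat1, marks the longer polyamines for oxidation or export, and spermine oxidase, from Smox, returns spermine to spermidine. Much of this control acts on protein, which an array does not measure.

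Array medians ran from 95.2 to 110.9, and the pools of CT61 to CT65 had the highest, 105.8 to 110.9. The upper quartile of intensity was 797.1 to 944.8 in CT60 to CT65 and 891.3 to 1099.4 in the other pools. A mean intensity under 100, near background, was found for 49.5% of probe sets. Each array was correlated with all others, and the median of these values averaged 0.989 over the 6 pools of CT60 to CT65 but 0.994 over CT36 to CT41. The lowest of all was CT61, at 0.984. Single pools elsewhere were in the range of the other 5, among them CT27 at 0.989 and CT25, CT31 and CT46 at 0.990. Among hepatocyte markers, all 5 measured were bright, with albumin (Alb) between 697353 and 831266. The pancreatic transcript Cpa1 was over 100 in 2 pools, 40170 at CT25 and 10661 at CT46, and at most 64.8 in the other pools. In bulk liver a change in the number of cells of a type and a change in RNA per cell cannot be told apart.

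The promoters of Odc1, Oaz1 and Sat1 are shown, for a synthesis, an antizyme and a catabolism gene. The Odc1 transcript peaked about 12 h from both others. The sequences are from RefSeq on GRCm38.p6 and run 5′ to 3′ on the strand of the gene, up to the last base before its annotated start. The Odc1 sequence lies on the plus strand at chr12:17544623-17544807, the Oaz1 sequence on the plus strand at chr10:80826406-80826655 and the Sat1 sequence on the minus strand at chrX:155216450-155216699. Capitals mark matches to the motifs searched, on either strand.
Odc1: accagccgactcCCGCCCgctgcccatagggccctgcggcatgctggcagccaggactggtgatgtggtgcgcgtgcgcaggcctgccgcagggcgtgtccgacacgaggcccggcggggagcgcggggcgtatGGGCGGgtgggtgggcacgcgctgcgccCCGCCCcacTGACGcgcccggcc
Oaz1: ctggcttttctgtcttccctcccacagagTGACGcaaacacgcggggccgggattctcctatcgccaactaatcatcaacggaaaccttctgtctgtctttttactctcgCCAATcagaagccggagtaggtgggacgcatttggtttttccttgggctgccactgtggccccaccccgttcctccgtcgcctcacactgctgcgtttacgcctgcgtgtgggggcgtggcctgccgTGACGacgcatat
Sat1: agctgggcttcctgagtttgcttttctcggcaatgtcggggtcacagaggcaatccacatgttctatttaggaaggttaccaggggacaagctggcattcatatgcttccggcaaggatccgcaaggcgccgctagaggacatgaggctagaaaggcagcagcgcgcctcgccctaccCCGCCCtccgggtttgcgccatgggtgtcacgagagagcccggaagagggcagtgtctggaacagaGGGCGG

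The motifs were the E-box CACGTG and its variant CACGTT, which bind clock and MYC family factors, the D-box in the forms TTATGTAA and TTACGTAA, the cAMP response element TGACGTCA and its shorter form TGACG, which the longer one contains, the GC box GGGCGG, the CCAAT box and the TATA box TATAAA. Windows of 300 bases, 250 before a listed start and 50 after it, were searched. For Odc1 the listed start lies past the first base of the annotated gene, 17544808. The Odc1 sequence shown stops before that base and has 185 bases, and the rest of its window is not shown. Windows were listed for Odc1, Oaz1, Oaz2, Sat1, Smox and, at 2 starts, Sms. Promoters of Srm and Azin1 were not used here. No window of Odc1, Oaz1, Oaz2, Sat1 or Smox held an E-box, its variant, a D-box or the full cAMP response element. The E-box CACGTG was found in 1 window, at 1 of the Sms starts, and in 7.15% of all 32851 windows. CACGTT was in 4.68%, a D-box in 1.06% and TGACGTCA in 1.79% of all windows. The short TGACG was found once for Odc1 and in 2 places for Oaz1, and in 20.8% of all windows. GC boxes numbered 4 for Odc1, of which 3 are in the sequence shown, 4 for Oaz2, 2 for Sat1 and 6 for Smox. Of all windows 35.7% held one. The Oaz1 window had no GC box but 1 CCAAT box and 1 TATA box, the latter within the 50 bases past the start that are not shown. CCAAT was in 37.4% and TATAAA in 13.6% of all windows. These matches describe the letters of the windows, and binding was not measured.

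Rhythms were called by 2 tests together, Fisher's G-test and a cosine fit with free period length, at a q-value under 0.05 in each and a fitted period between 20 and 30 h. Both tests called 8 of the 14 probe sets, or 57.1%, against 9.98% of all probe sets. These were all 3 probe sets of Odc1, 2 of 3 for Azin1, and the single ones of Srm, Sat1 and Oaz1. No probe set of Oaz2 or Smox was called. Among the probe sets with a mean of at least 100, tested alone, the share called was larger, 5839 of 22782, and Oaz2 1426763_at was then called too. Its cosine fit gave a period of 27.6 h, but its strongest period in the G-test was 12 h. The fitted period lengths were 22.8 to 24 h for Odc1, 26.5 h for Srm, 21 and 22.3 h for Azin1, 25.3 h for Sat1 and 21.4 h for Oaz1. Without CT60 to CT65, Srm was no longer called, with a G-test q of 0.0951. The 42 pools then hold no Fourier frequency at 24 h.

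Amplitudes and peak times came from a limma fit that held, besides a linear trend, cosine pairs of 24, 12 and 8 h, and whose p-values were adjusted over all probe sets. The amplitude is given in log2 units, from the middle of the curve to its peak, and the ratio of peak to trough follows from it. The 24 h component passed the limma threshold of 0.05 in 9 of 14 probe sets, or 64.3%, where 47.4% of all probe sets passed. In this setting the count was close to the background. The ninth was a probe set of Oaz2. The background was lower in other settings. Without CT60 to CT65 it was 9875 of 45101, with 10 of the 14 passing. Under quantile normalization it was 10553, with 8 of the 14 passing. The median amplitude of the 14 probe sets was 0.25, against 0.05 over all probe sets and 0.12 over those with a mean of at least 100.

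Odc1 had the largest fitted amplitude of the genes, followed by Srm within its error. In its brightest probe set, 1437711_x_at, the 12 pools of CT6 to CT11 ran from 16305 to 24200 with a median of 19571, and the 12 pools of CT12 to CT17 from 19048 to 54829 with a median of 34760. The pools of CT18 to CT23 lay between 23003 and 44704. All but 1 of the CT12 to CT17 pools exceeded every pool of CT6 to CT11. The fitted amplitude was 0.55 ± 0.04 (SE, n = 48), a peak to trough ratio of 2.16, and the peak fell at CT18.4 ± 0.33 (adjusted p = 1.7e-12, limma).

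The other Odc1 probe sets gave the same time of day. Probe set 1438761_a_at rose from a median of 7670 at CT6 to CT11 to 14854 at CT12 to CT17 and peaked at CT18.4 ± 0.33 with an amplitude of 0.55 ± 0.04. The dimmer 1427364_a_at had a range of 922.6 to 1496 at CT6 to CT11 and 1587 to 2366 at CT18 to CT23. These ranges did not overlap, and its peak was at CT19.1 ± 0.42 with an amplitude of 0.39 ± 0.04. Over the 48 pools the log2 values of the 3 probe sets correlated with r between 0.68 and 0.84, a description that shares the arrays. Among the 4499 probe sets called with a 24 h period, the amplitude of 1437711_x_at stood at percentile 86.4. Of those 4499, 18.0% peaked between CT18 and CT24, the smallest share of the 4 blocks of 6 h.

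Srm, which makes spermidine from putrescine, peaked earlier in the subjective night. Its single probe set, 1421260_a_at, had a median of 4971 in the pools of CT6 to CT11, between 3254 and 10559, and of 8211 at CT12 to CT17, between 5184 and 11420. These blocks of 6 h overlapped, and 1 of 12 pools at CT12 to CT17 was above all pools at CT6 to CT11. The highest value of the first cycle was 11420 at CT38, but that of the second was 10866 at CT50, in the subjective morning. The fitted peak was at CT15.4 ± 0.57 with an amplitude of 0.48 ± 0.07 and a peak to trough ratio of 1.96 (adjusted p = 2.72e-06, limma). In CT60 to CT65 the gene was lower by 0.61 in log2 than in CT36 to CT41.

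**Figure D1:**
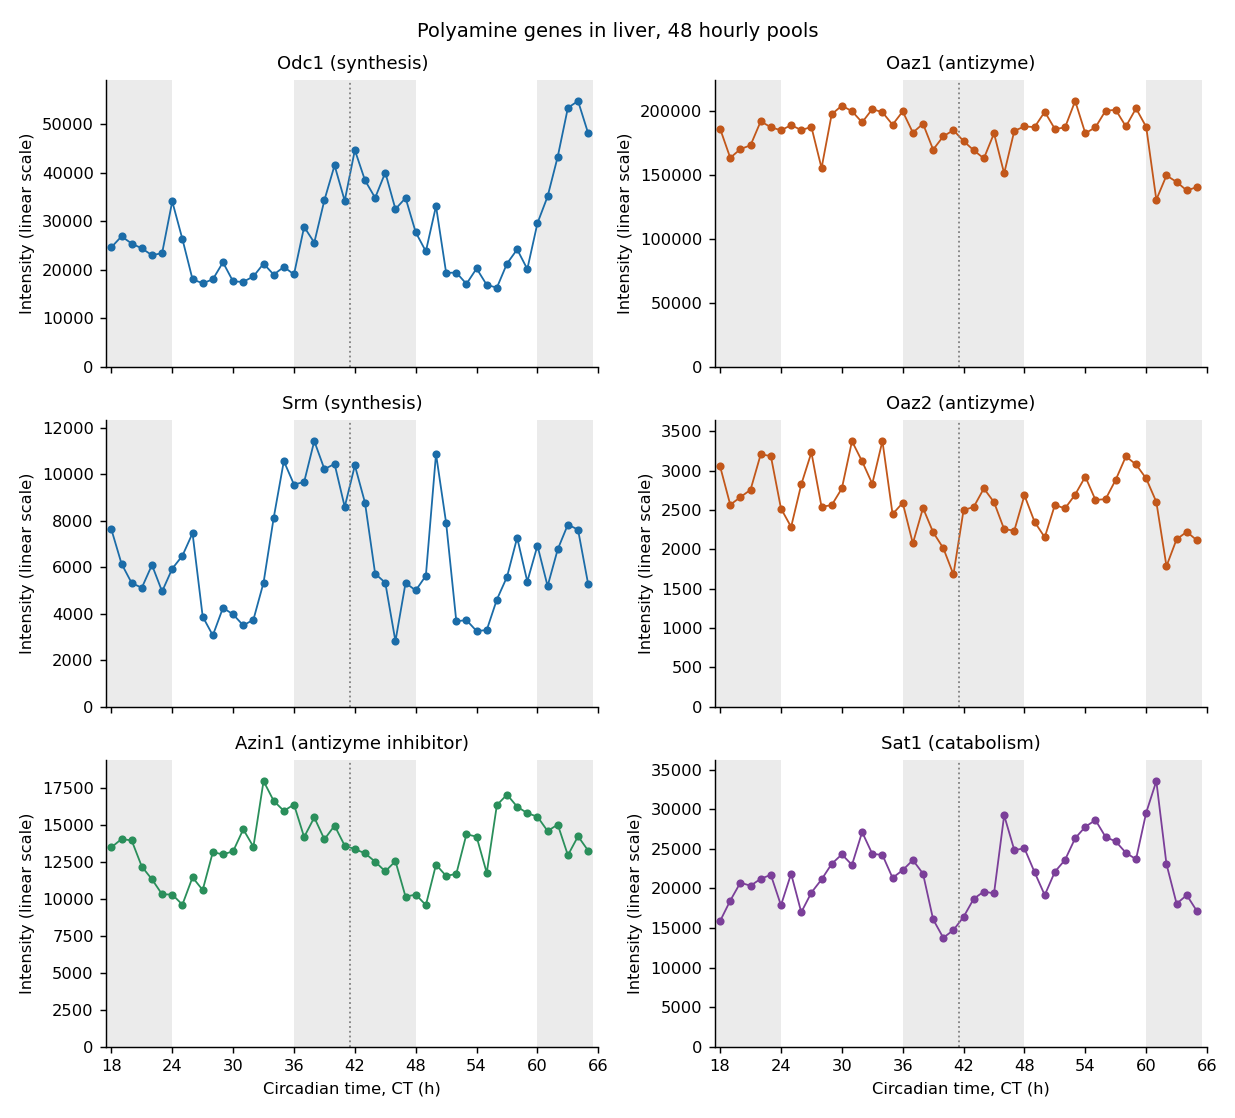
Intensity on the linear scale against circadian time for the brightest probe set of 6 genes, with 1 point per hourly pool, grey bands for the subjective night and a dotted line between the cycles. Odc1 was highest in the grey bands, up to 54829 at CT64. The medians of Azin1, Oaz1, Oaz2 and Sat1 were highest at CT6 to CT11. The highest single pool of Sat1 was 33555 at CT61, in the subjective night.

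The 3 probe sets that Sms shares with its pseudogene gave no rhythm. The brightest, 1421052_a_at, ranged from 372.5 to 941.7, and its medians over blocks of 6 h were between 596.3 and 692.1. Its 24 h component did not pass (adjusted p = 0.361, limma), nor did those of the other 2, which lay near background with means of 106.8 and 141.6.

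The fitted 24 h peak of Azin1 fell at subjective dusk. In probe set 1450714_at the 12 pools of CT0 to CT5 ran from 9589 to 14384 with a median of 11513. Those of CT6 to CT11 ran from 11768 to 17981 with a median of 15888. The median at CT12 to CT17 was lower, 14422, so the highest block lay before the fitted peak. The lowest pool of the first cycle was CT25 and that of the second CT49, the same hour of the day, and the highest were CT33 and CT57, again the same hour. The peak was at CT11.8 ± 0.28 and the amplitude 0.28 ± 0.02, a ratio of 1.47 (adjusted p = 1.58e-12, limma). Probe set 1422702_at peaked at CT11.9 ± 0.51 with an amplitude of 0.32 ± 0.05, but in the second cycle alone its component did not pass (adjusted p = 0.0865), with an amplitude of 0.19 and a peak at CT10.2. The third, 1430984_at, had a mean of 892.5, fell as low as 187.7, and did not pass (adjusted p = 0.135). It passed without CT60 to CT65, with an adjusted p of 0.0141 and an amplitude of 0.44 ± 0.12.

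The antizyme transcripts had small amplitudes. Oaz1, through 1436292_a_at, had a median of 199762 at CT6 to CT11, between 182862 and 204495, and of 175095 at CT18 to CT23, between 151459 and 192216. These blocks overlapped, with 7 of 12 pools of CT6 to CT11 above all those of CT18 to CT23. The amplitude was 0.13 ± 0.02, a ratio of 1.20, and the peak lay at CT6.40 ± 0.78 (adjusted p = 0.000276, limma). The lowest values of the whole course were those of CT61 to CT65, all below the next lowest, 151459 at CT46. Without CT60 to CT65 the Oaz1 amplitude was 0.09 ± 0.02 with a peak at CT7.89 and an adjusted p of 0.00261, and in the first cycle alone the component did not pass (adjusted p = 0.332). The probe set that Oaz1 shares with a pseudogene had an amplitude of 0.10 ± 0.03 and a peak at CT6.60.

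Oaz2 differed between its probe sets. In 1426763_at the medians were 2906 at CT6 to CT11 and 2174 at CT12 to CT17, with 6 of 12 pools of the former above all of the latter. The amplitude was 0.14 ± 0.03 and the peak at CT6.34 ± 1.0 (adjusted p = 0.00519, limma), a call lost under quantile normalization, where the adjusted p was 0.185, and in the first cycle alone, where it was 0.0579 with a peak at CT9.07. Probe set 1426764_at, of similar brightness, had no 24 h component that passed (adjusted p = 0.672), and the log2 values of the pair correlated with r = 0.17. The third, 1442541_at, lay near background with a mean of 116.4.

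Sat1, the acetyltransferase of polyamine breakdown, had its fitted 24 h peak in the subjective day. Its probe set 1420502_at had a median of 24431 at CT6 to CT11, between 21331 and 28629, against 19970 at CT18 to CT23, between 15882 and 29226. No pool of CT6 to CT11 was above all of CT18 to CT23, because CT46 reached 29226. The widest block was CT12 to CT17, from 13764 to 33555 with a median of 20511, and it held the highest pool of the second cycle, CT61, in the subjective night. In the first cycle the highest was 27112 at CT32. CT46 was 1 of the 2 pools with the pancreatic transcript, and without CT25 and CT46 the peak was at CT6.59 with an adjusted p of 2.48e-07. With all pools the amplitude was 0.22 ± 0.03, a ratio of 1.35, and the peak CT6.25 ± 0.55 (adjusted p = 5.51e-07, limma). Smox stayed near background in both probe sets, with intensities of 62.7 to 92.1 in 1424268_at and 77.3 to 118.1 in 1446509_at. Neither had a 24 h component that passed (adjusted p = 0.520 and 0.783). The second of them passed in the second cycle alone, with an adjusted p of 0.0176 and an amplitude of 0.06, and without CT27, with an adjusted p of 0.0450 and an amplitude of 0.03.

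**Figure D2:**
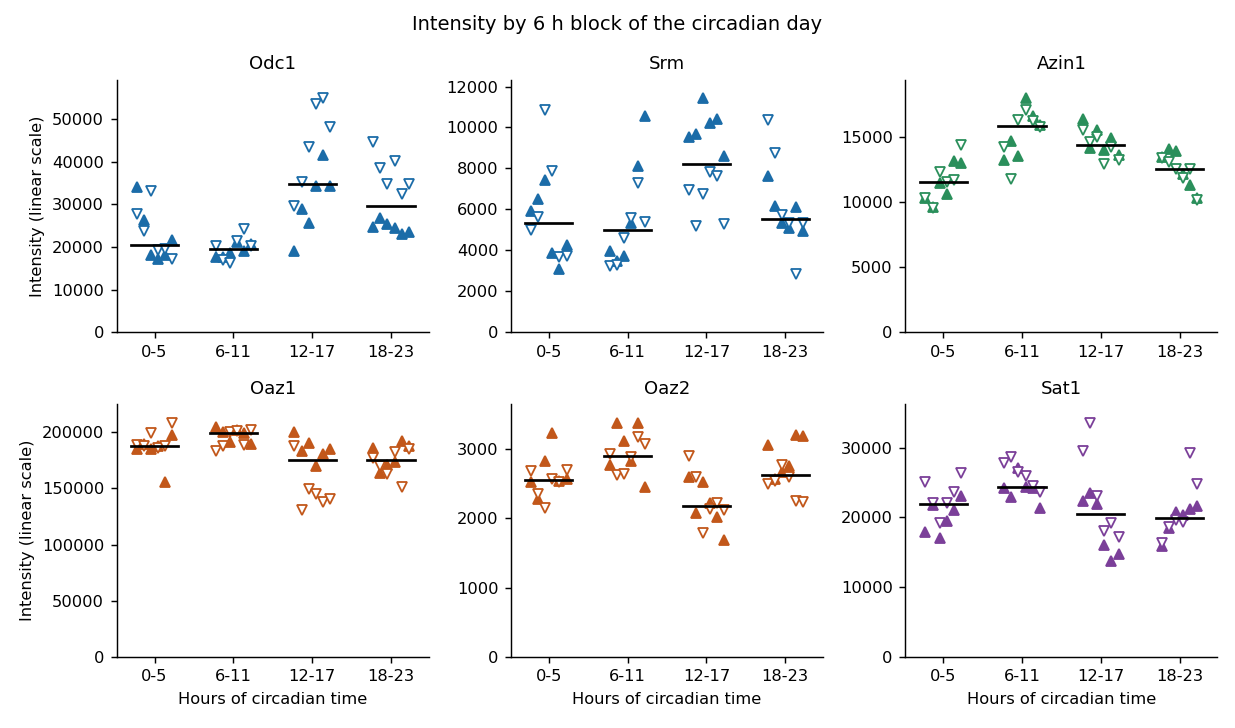
Intensity on the linear scale for the brightest probe set of 6 genes in 4 blocks of 6 h of the circadian day, with filled triangles for the first cycle, open triangles for the second and a line at the median of 12 pools. The Odc1 median rose from 19571 at CT6 to CT11 to 34760 at CT12 to CT17. The medians of Azin1, Oaz1, Oaz2 and Sat1 were highest at CT6 to CT11.

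The order of the peaks was compared in 15 pairs, taking the brightest probe set of the 6 genes whose 24 h component passed in it. The intervals are 95% intervals of single pairs, not adjusted for their number, and use the covariance of the residuals, since both genes of a pair were read on the same arrays. In 12 pairs the interval excluded 0. The 3 exceptions were the pairs among Sat1, Oaz1 and Oaz2, whose peaks were 0.0596 to 0.146 h apart. For Sat1 and Oaz1 the interval ran from -2.14 to 2.43 h, so that a separation of up to about that size was not detectable.

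In their brightest probe sets, the fitted peaks of Odc1 and the antizymes fell at opposite times of day. For Oaz2 this rests on 1426763_at, as 1426764_at had no 24 h component that passed (adjusted p = 0.672, limma). In the first cycle alone neither antizyme passed. Without CT60 to CT65 the peaks were at CT7.89 for Oaz1 and CT18.7 for Odc1. Odc1 and Oaz1 were separated by 11.9 h, with an interval of 10.4 to 13.5 h, and Odc1 and Oaz2 by 11.9 h, with an interval of 9.88 to 13.9 h. Odc1 and Sat1 were 11.8 h apart, between 10.6 and 13.1 h. The synthesis genes were not simultaneous. Srm preceded Odc1 by 3.06 h, between 1.75 and 4.37 h. Azin1 preceded Srm by 3.63 h, between 2.36 and 4.89 h, and Odc1 by 6.69 h, between 5.79 and 7.58 h. Azin1 in turn followed Oaz1 by 5.36 h, between 3.67 and 7.06 h, and Sat1 by 5.51 h, between 4.24 and 6.78 h. Read in order, the fitted 24 h peaks of antizyme and acetyltransferase transcripts fell in the middle of the subjective day, the antizyme inhibitor at dusk, and spermidine synthase and ornithine decarboxylase in the subjective night. Without CT60 to CT65, under quantile normalization or without the linear trend, the count of pairs whose interval excluded 0 was also 12. The same 6 genes were kept in each setting. Under quantile normalization Oaz2 did not pass (adjusted p = 0.185, limma), so the intervals of its pairs there rest on a component that was not called.

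**Figure D3:**
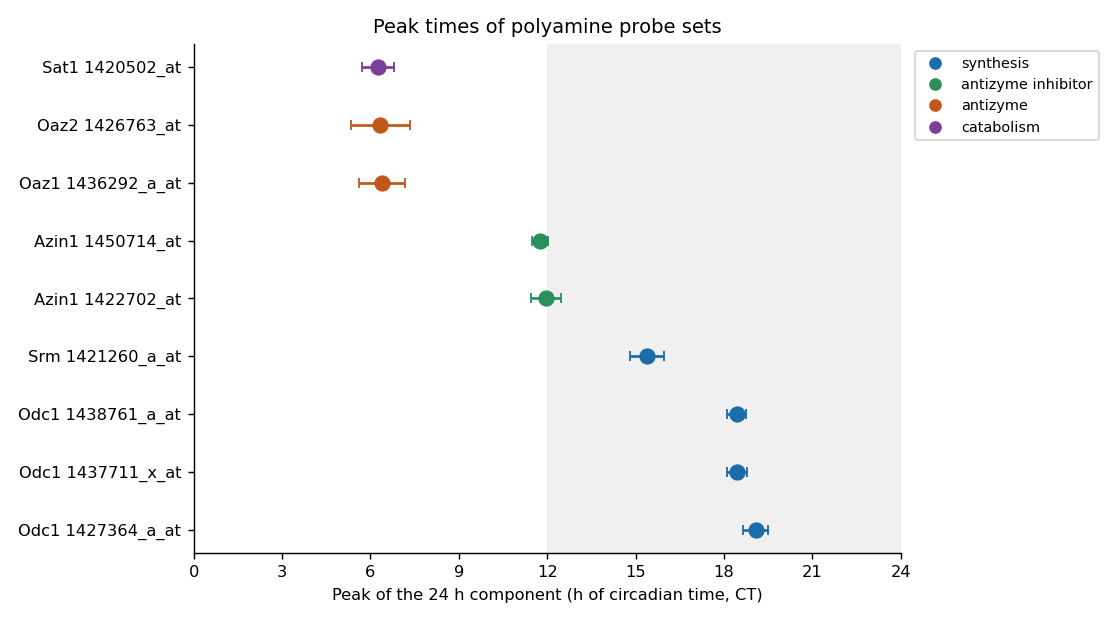
Peak of the 24 h component in hours of circadian time, with bars for 1 SE, for the 9 probe sets with a symbol of their own that passed, coloured by role, with the subjective night in grey. The peaks run from CT6.25 for Sat1 to CT19.1 for an Odc1 probe set, and probe sets of the same gene lie within 1 h of each other.

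Components at 12 and 8 h were also tested. The 12 h component passed in 4 of 14 probe sets, where 4.89% of all probe sets passed. The background was larger among probe sets with a mean of at least 100, tested alone, where 2769 of 22782 passed. Sat1 had a 12 h amplitude of 0.18 with peaks near CT10.1 and 12 h later (adjusted p = 0.000165, limma), close in size to its 24 h amplitude of 0.22. Srm had a 12 h amplitude of 0.31 (adjusted p = 0.00937), Oaz2 1426763_at of 0.15 (adjusted p = 0.0166) and Azin1 1450714_at of 0.08 (adjusted p = 0.0304). The Azin1 call was lost on linear intensity (adjusted p = 0.0574, limma), without CT60 to CT65 (0.1355) and with array weights (0.0891). The 8 h component passed in 2 of 14 probe sets, where 1.35% of all passed. These were Sat1, with an amplitude of 0.15 (adjusted p = 0.0111), and Oaz2 1426764_at, with 0.18 (adjusted p = 0.0404). The Oaz2 call was kept in 25 of 48 fits with 1 pool left out. Among probe sets with a mean of at least 100, tested alone, 971 of 22782 passed at 8 h, and Srm then passed too (adjusted p = 0.0343, limma). Over all probe sets, both tests with a free period placed no member in the 12 h or 8 h class. With probe sets of a mean under 100 left out, Oaz2 1426764_at fell in the 8 h class. Its q-values were then 0.0177 in the G-test and 0.00313 in the cosine fit. Neither component of Odc1 passed in any of its 3 probe sets, the smallest adjusted p being 0.150.

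The cycles were compared in level and in rhythm. In level, 2 of 14 probe sets were higher in the second cycle, where 43.1% of all probe sets were, and 1 was lower, where 12.1% were. Sat1 was higher by 0.18 ± 0.04 in log2 (adjusted p = 0.000245, limma). Odc1 1437711_x_at was higher by 0.31 ± 0.06 (adjusted p = 0.000164), whereas the other Odc1 probe sets differed by 0.07 ± 0.06 and 0.03 ± 0.06 and did not pass. Oaz1 was lower by 0.09 ± 0.03 (adjusted p = 0.0361), a difference of 0.01 with an adjusted p of 0.884 once CT60 to CT65 and CT36 to CT41 were left out. Its call was also lost under quantile normalization (adjusted p = 0.0910), with array weights (0.145) and among probe sets with a mean of at least 100 (0.0574). With the cycles paired by hour of the day it had an adjusted p of 0.0618, whereas Sat1 and Odc1 1437711_x_at passed. The 24 h component differed between cycles in 4 of 14 probe sets, where 5.01% of all did. These were Odc1 1437711_x_at, Azin1 1422702_at and 1430984_at, and Oaz1. The Oaz1 difference was lost on linear intensity (adjusted p = 0.0638) and with array weights (0.0745), and that of Azin1 1430984_at under quantile normalization (0.107). None of them passed without CT60 to CT65 and CT36 to CT41, with adjusted p between 0.645 and 0.805 in 36 pools and unadjusted p of 0.00468, 0.0159, 0.0342 and 0.620 in the same order.

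Other genes of polyamine metabolism were read through their brightest probe set. Of 36 listed genes 31 were measured with a symbol of their own. Amd1, Amd2, Paox and Mat2a were among those not analysed here. The 24 h component passed in 17 of 31, or 54.8%, near the 47.4% of all probe sets. It passed in 17 without CT60 to CT65, where 9875 of all 45101 probe sets did. Under quantile normalization it passed in 12, where 10553 of all did. The calls lost under quantile normalization were those of Sat2 (adjusted p = 0.545), Eif5a2 (0.239), Atp13a2 (0.113), Mri1 (0.0921) and Apip (0.0514), and without CT60 to CT65 those of Eif5a2 (0.0735) and Atp13a2 (0.124), while Eif5a (0.0100) and Adi1 (0.0482) then passed. Both tests called 4, or 12.9%, against 9.98% of all. These were Slc7a2, Atp13a3, Slc18b1 and Oat. The median amplitude of the 31 genes was 0.11.

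The largest amplitude among the listed genes was in transport. Slc7a2, a transporter of arginine, ornithine and lysine, ran from 14561 to 152527 with an amplitude of 1.02 ± 0.07 and a peak at CT7.96 ± 0.27 (adjusted p = 1.76e-14, limma). Its 12 h and 8 h components passed as well. Slc18b1, a vesicular polyamine transporter, peaked at CT23.3 ± 0.45 with an amplitude of 0.50 ± 0.06. Its intensity ran from 80.7 to 459.8, so that its lowest values were near background. Atp13a3, a lysosomal and endosomal polyamine pump, peaked at CT9.36 ± 0.64 with 0.27 ± 0.05, and its relative Atp13a2 at CT6.42 with 0.16 ± 0.04. Oat, the mitochondrial ornithine aminotransferase, peaked at CT8.56 ± 0.63 with 0.15 ± 0.03. Arg1, the liver arginase that yields ornithine, peaked at CT13.4 with 0.05 ± 0.01 and also had an 8 h component. Agmat, annotated as an agmatinase, peaked at CT6.70 with 0.10 ± 0.02. Slc3a2, Slc7a1, Arg2, Otc and Aldh18a1 did not pass.

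Genes that use spermidine and genes of the neighbouring methionine reactions passed in part. Dhps and Dohh, which place hypusine on the translation factor eIF5A, peaked at CT13.3 ± 0.97 and CT12.0 ± 0.69 with amplitudes of 0.29 ± 0.08 and 0.19 ± 0.04. Their substrate gene Eif5a did not pass (adjusted p = 0.147), and Eif5a2 passed at an intensity near background, with a mean of 68.3. Of the methionine genes, Mat1a, which makes S-adenosylmethionine, peaked at CT13.2 and the salvage genes Mtap, Mri1 and Apip at CT23.1, CT7.95 and CT12.6, with amplitudes of 0.12 to 0.21. Mtap also passed at 12 h, Mat2b passed at 12 and 8 h alone, and Adi1 passed at none. Sat2 passed with a peak at CT4.59 and an amplitude of 0.11 ± 0.03. Oaz3, Azin2 and Aoc1 did not pass. Of the MYC network, which is known to act on Odc1, Max, with a mean of 109.8 near background, and Mxi1 passed with peaks at CT22.4 and CT12.5. Myc (adjusted p = 0.313, limma), Mxd1 and Mnt did not.

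**Figure D4:**
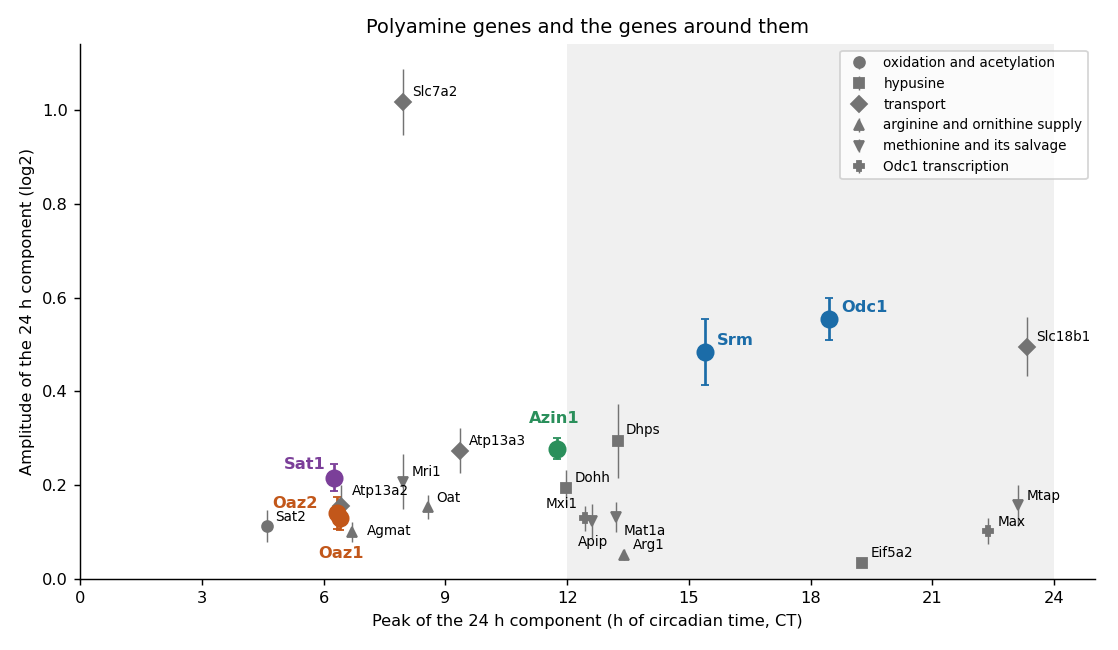
Amplitude of the 24 h component in log2 units, with bars for 1 SE, against its peak in hours of circadian time, for 17 listed genes that passed in grey and the brightest probe sets of 6 polyamine genes in colour, with the subjective night shaded. Slc7a2 stands highest at 1.02 and CT7.96, and Odc1 and Srm lie alone in the middle of the subjective night above 0.4.

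Clock genes give the frame for these times. Nr1d1 peaked at CT6.63 ± 0.17, Dbp at CT10.2 ± 0.12, Per2 at CT13.9 ± 0.24 and Arntl at CT22.3 ± 0.18, with amplitudes from 1.70 to 3.85, all larger than that of Odc1. Among 11185 other genes with a mean of at least 100, those whose 48 log2 values were most like Azin1 1450714_at were Tef, Coq10b and Dbp, with r from 0.85 to 0.89. The closest to Odc1 were Acsl4, Cycs and Tmem33, with r from 0.83 to 0.89, and the closest to Oaz1 were Slc25a22, Srrm1 and Rab14, with r of 0.90 to 0.91. For Sat1 they were Prxl2c, Stxbp3 and Casp6, for Srm 4833439L19Rik, Ppp1r14b and Mgat2, and for Oaz2 Nfib, Zbed6 and Ypel3, with r between 0.74 and 0.82. These values share the arrays and are given as descriptions.

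Markers of other liver cells were read in the same way, against the 47.4% of all probe sets whose 24 h component passed. Of 7 Kupffer cell markers 4 passed, with peaks from CT20.0 to CT21.3, near that of Odc1. The summed intensity of all 7 was 48754 to 64501 at CT18 to CT23 and 34312 to 84853 at CT6 to CT11. This sum includes Cd5l, with a mean of 23260, which did not pass (adjusted p = 0.291, limma). Of 6 sinusoidal endothelial markers 5 passed, with Lyve1 and Clec4g peaking at CT18.0 and CT19.8 and Cdh5, Stab2 and Kdr at CT4.10 to CT4.65. Without CT60 to CT65 this count was 3, with adjusted p of 0.0587 for Cdh5 and 0.0719 for Kdr. The sum of all 6 was 26135 to 31552 at CT18 to CT23 and 20678 to 29423 at CT6 to CT11. Of 6 stellate cell markers 5 passed, at CT3.47 to CT4.96 and at CT19.9 and CT20.7. The sums of all 6 were 63379 to 90139 and 62461 to 86043. The part of these cells in the rhythms of the polyamine genes was not tested. Hepatocyte markers passed in 2 of 5, Fgb and Tat, and the sums of all 5, 3033908 to 3204515 and 2971356 to 3158087, overlapped. Among lymphocyte, neutrophil, erythroid, bile duct, pancreatic and adipocyte markers, 0 of 5, 3 of 5, 1 of 2, 1 of 4, 0 of 3 and 1 of 2 passed by limma. Cd3g, Cd79a, Nkg7, Ngp, Ltf, Camp, Hba-a1, Krt7, Adipoq, Cidec and the stellate cell marker Des lay near background, with means under 100.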

How the data were processed

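Gene expression was measured in 48 hourly pools of mouse liver, each on 1 Affymetrix mouse array. The authors deposited linear intensities, made with GCRMA by their methods. The submitters' processing notes name MAS5 without a version, and which of these gave the values was not settled. Symbols came from the platform annotation, updated to RefSeq: 34958 probe sets had 1 symbol, 932 several and 9211 none. The brightest probe set stood for a gene. Values were taken to log2. Fisher's G-test over 23 frequencies and a cosine fit of detrended values, with periods from 4 to 30 h every 0.1 h and 1000 scramblings of the pools, were turned into Storey q-values over all 45101 probe sets. Harmonic pairs at 24, 12 and 8 h, their interaction with cycle, and the level between cycles were tested in limma with Benjamini-Hochberg adjustment over all probe sets. Intervals of peak differences came from the delta method. Scripts were tested on simulated data. Named were every member, listed pathway genes that passed, 4 clock genes and the 3 genes most alike to each member. Members and lists were chosen with earlier results of these data known. Alternatives were linear values, no trend, quantile normalization, a mean of at least 100, other models, nulls and adjustments, array weights, and parts or single pools left out. Leaving out CT25 and CT46 was chosen after seeing the data. The number of arrays limits the precision, and p-values measure the spread between pools. Versions were limma 3.58.1 in R 4.3.3, and matplotlib 3.10.9, scipy 1.17.1, pandas 2.3.3 and numpy 2.4.6 in Python 3.11.15.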

Additional observations from a re-analysis of the deposited data

Results flagged for a closer look

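The 24 h component differed between the first and the second cycle by an interaction test in limma in 4 probe sets. For Odc1 1437711_x_at the adjusted p was 0.0151, and fitted alone the amplitude was 0.40 ± 0.07 in the earlier cycle and 0.70 ± 0.05 in the later one. For Oaz1 1436292_a_at it was 0.0414, with 0.08 ± 0.04 and 0.20 ± 0.03. For Azin1 1422702_at it was 0.00408, with 0.52 ± 0.13 and 0.19 ± 0.08, and for Azin1 1430984_at 0.0385, with 0.68 ± 0.29 and 0.07 ± 0.28. A fit to 1 cycle shares part of its 24 h pair with its trend, so these amplitudes are less certain than those over both cycles. The brightest probe sets of Azin1 and the other probe sets of Odc1 did not pass the interaction test, with adjusted p of 0.647 for Azin1 1450714_at and of 0.484 and 0.904 for Odc1. In CT60 to CT65 the log2 level differed from that of CT36 to CT41 by 0.54 for Odc1 1437711_x_at, -0.32 for Oaz1, -0.28 for Azin1 1422702_at and -0.54 for Azin1 1430984_at. Without these 12 pools none of the 4 passed, in a fit to 36 pools, and the unadjusted p for Odc1 1437711_x_at was 0.00468. The part of these pools in the differences was not tested otherwise.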

How the results depend on the processing

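The count of probe sets with a 24 h component was 9 of 14 and moved between 6 and 10 under the alternatives, with 6 where 1 probe set per gene was fitted. Leaving out 1 pool gave 9 to 10, the 10 without CT60, where Azin1 1430984_at passed with an adjusted p of 0.0242, and without CT27, where Smox 1446509_at passed with 0.0450. The 8 calls by both tests became 7 without CT60 to CT65 (Srm lost) and under quantile normalization (Oaz1 lost), and 9 among probe sets with a mean of at least 100 (Oaz2 1426763_at gained). The 12 h count of 4 fell to 1 in the first cycle alone and 0 in the second, and was 3 to 4 with 1 pool left out. The 8 h count of 2 fell to 1 under quantile normalization and without CT60 to CT65 and to 0 in either cycle alone, and was 1 to 3 with 1 pool left out. A single cycle has 24 pools. The 4 differences of rhythm between cycles fell to 0 without CT60 to CT65 and CT36 to CT41 and were 3 on linear intensity, under quantile normalization and with array weights, and the level count of 3 was 2 to 4 with 1 pool left out. No direction reversed in the alternatives run, and no called 24 h peak moved by over 6 h. Over all probe sets the 24 h count of 21375 became 10553 under quantile normalization, 9875 without CT60 to CT65 and 3612 in the first cycle alone. With the hour of the day as a replicate block, chosen after seeing the data, the level count was 2, Oaz1 being lost with an adjusted p of 0.0618. The 1 pool per hour and the signal near background limit what could be detected.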
